A study of Mus musculus with 50 samples.

Results

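The integrated stress response is followed here through 10 genes that carry or carry out its transcriptional arm: Atf4, Atf5, Atf3, Ddit3, Cebpb, Cebpg, Nupr1, Trib3, Chac1 and Ddit4. They were picked by name out of 17849 genes on the array, and each is given by its brightest probe on average over all arrays. Of the 10 genes, 9 stood in the file under these names, and Chac1 was found through its older name, 1810008K03Rik. A filter on dim probes kept 8 of the 10, while the probes of Atf3 and Cebpg were above background on only 7 and 6 of the 50 arrays and were not tested. RNA came from frontal cortex synaptosomes, which are nerve terminals that pinch off and reseal when brain is homogenized. Each array held 1 mouse of the CD1 background aged between 17 and 21 days. The groups were 10 Sod2 knockouts given the low dose, 10 Sod2 knockouts given the high dose, 9 untreated wild types, 11 wild types given the low dose and 10 wild types given the high dose. The knockout was constitutive, and Sod2 encodes the superoxide dismutase of the mitochondrial matrix. The agent was a salen manganese antioxidant, EUK8 in the titles and EUK189 in the treatment field, at 1 mg/kg (low) or 30 mg/kg (high). Every knockout was treated, so a knockout effect can be read only at a given dose, and the agent's effect in knockouts only between the doses.

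In the integrated stress response, kinases that sense mitochondrial, amino acid, heme or endoplasmic reticulum stress phosphorylate the translation factor eIF2alpha. Most protein synthesis then slows, while the mRNA of Atf4 is translated better through upstream open reading frames in its leader, so that Atf4 activity can change without a change of its mRNA. The ATF4 protein, alone or with C/EBP partners, switches on genes for amino acid transport, amino acid synthesis and tRNA charging, further transcription factors such as Ddit3 and Atf3, and feedback inhibitors such as Trib3.

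Levels below are log2 signals after background correction and quantile normalization, and differences come from 1 linear model of all 50 arrays with group and chip (limma), adjusted over 13440 probes by the Benjamini-Hochberg method. A gene is called at an adjusted p under 0.05, and because chips are fitted, a difference can depart slightly from that of the group means. Between 10161 and 12330 of the 25697 probes were above background on an array. The Sod2 probe was above background on every array of every group, averaging 10.18 in low-dose and 10.08 in high-dose knockouts, against 9.66 to 9.86 in the 3 wild-type groups. The sources used here do not say whether the probe lies in the deleted part, and it therefore does not check the labels. Of 8 neuron and synapse markers in the file, 7 were above background on most arrays (the Snap25 probe was at background in high-dose knockouts), as were all 12 astrocyte, all 12 microglia and all 8 oligodendrocyte markers, so the preparations held RNA of glia besides nerve terminals. Only 1 of 8 endothelial and mural markers was, and Tek was at background in both knockout groups and in untreated wild types. In such bulk RNA, fewer cells of a type and less RNA per cell cannot be told apart.

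Promoters were searched for the core of the C/EBP-ATF response element, the site that ATF4 and C/EBP dimers bind. The motif TGATGNAA or its reverse complement TTNCATCA occurred in the 300-base promoter windows (250 bases before to 50 after the start, RefSeq, GRCm38.p6) of 4 of the 10 genes: Atf3, Nupr1, Trib3 and Chac1. All 10 had a window, and 3.97% of 32851 windows in the genome held the motif. The cyclic AMP response element TGACGTCA was in 1.79% of windows and in 0 of the 10. Of the 3 genes with a match upstream of a start, Nupr1 and Chac1 were tested for differences and Atf3 was too dim. The stretches around these 3 matches are shown because they share the same 8 letters, printed in capitals. They are read 5′ to 3′ on the strand of the gene, and the match begins 110 bases before the start in Atf3, 110 in Nupr1 and 193 in Chac1.
Atf3, chr1:191183412-191183467, minus strand: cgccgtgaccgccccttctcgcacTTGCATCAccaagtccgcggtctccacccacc
Nupr1, chr7:126625549-126625604, minus strand: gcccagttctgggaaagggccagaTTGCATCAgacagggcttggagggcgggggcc
Chac1, chr2:119351025-119351080, plus strand: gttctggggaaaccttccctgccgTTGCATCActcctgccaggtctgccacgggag
In Trib3 the match TTACATCA began 14 bases after the start. Letters that match are a description of these windows and not a sign of binding.

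**Figure D1:**
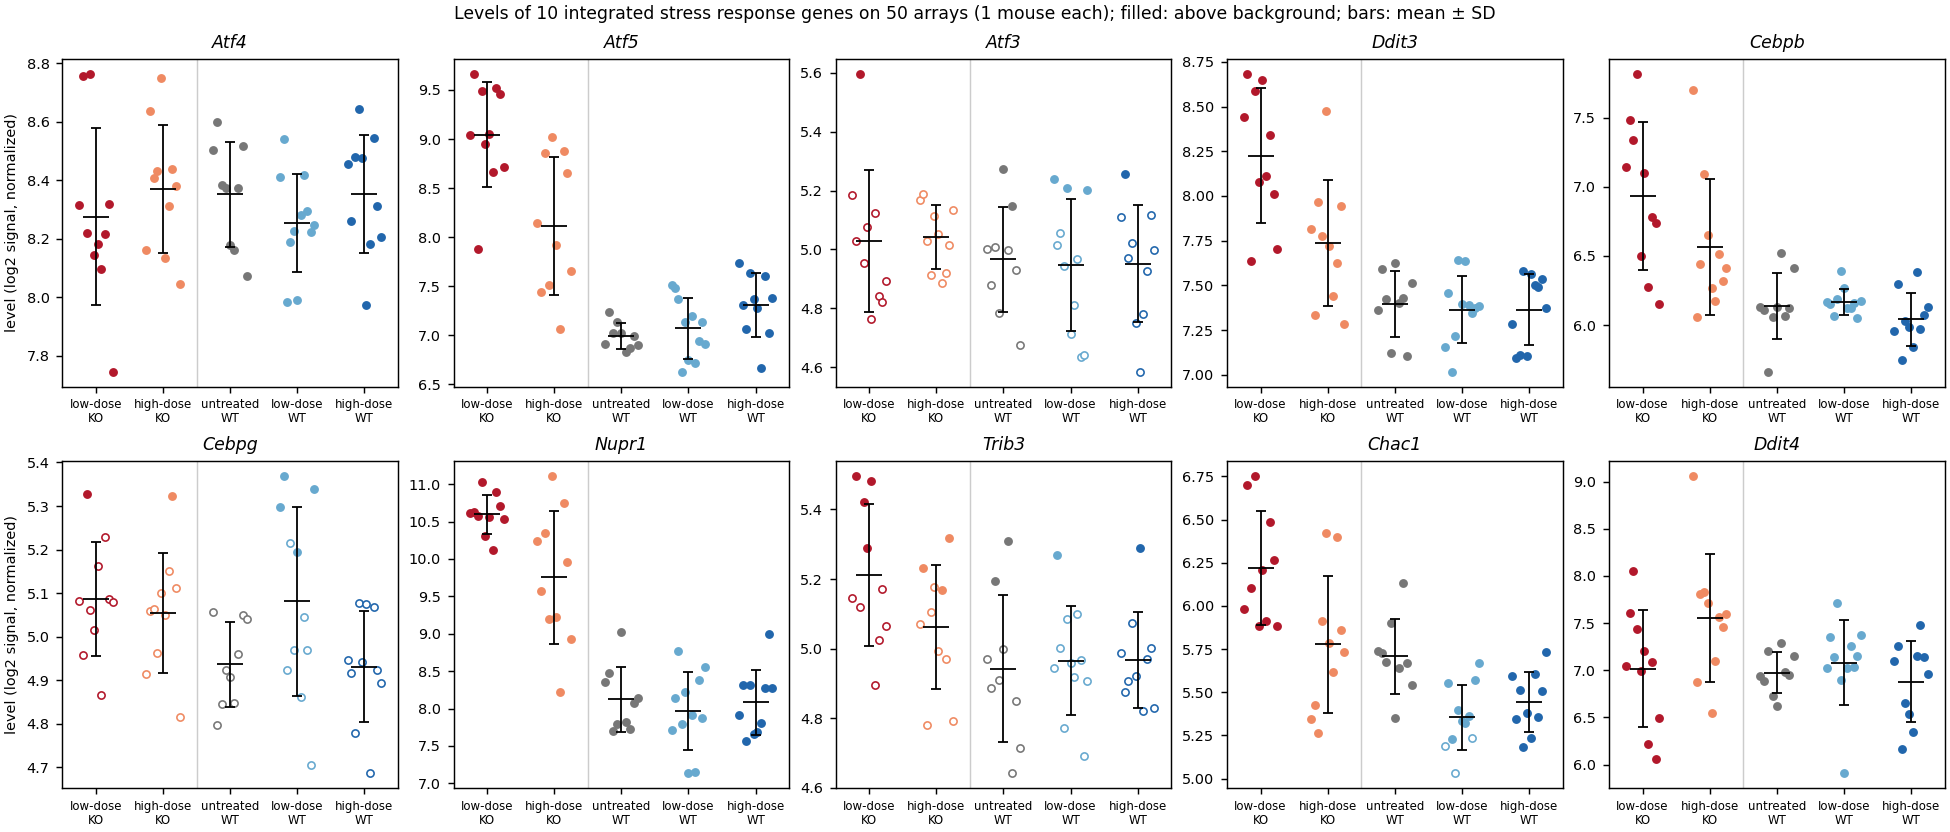
Level (log2 normalized signal) of each of the 10 genes on every array, with low-dose and high-dose knockouts left of untreated, low-dose and high-dose wild types. Filled points are arrays where the probe was above background and black bars are the mean ± SD. Nupr1, Atf5 and Chac1 separate all 10 low-dose knockouts from all 11 low-dose wild types, Atf4 lies between 7.75 and 8.76 in all groups, and Atf3, Cebpg and Trib3 are mostly open points.

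Of the 8 tested genes, 6 were called higher in low-dose knockouts than in low-dose wild types and 0 lower. Nupr1, Atf5, Ddit3, Chac1 and Cebpb rose, the call of Trib3 rests on a probe at background on most arrays of both groups, Ddit4 and Atf4 did not pass, and the median difference of the 8 was 0.80. Over all probes tested the median difference was −0.00, 10.8% were called as rising, 10.1% as falling and 20.9% in either direction. For Nupr1, Atf5 and Chac1 the groups did not overlap, which was the case for 1.43% of all probes.

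Atf4 (chr15:80255184-80257545), the factor at the head of the response, had nearly the same RNA level in knockouts and wild types. Its level ran from 7.75 to 8.76 with a median of 8.22 in low-dose knockouts, against 7.98 to 8.54 with a median of 8.25 in low-dose wild types. The difference was 0.01 ± 0.0882 (SE, 95% interval −0.17 to 0.19, adjusted p = 0.972), and its sign turned under 3 alternatives of the processing. A second Atf4 probe differed by −0.07 (adjusted p = 0.635).

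Atf5 (chr7:44812256-44816658), a relative of Atf4 whose mRNA is under the same kind of translational control and which is known for its part in the mitochondrial unfolded protein response, rose 3.75-fold. Its level ran from 7.88 to 9.66 with a median of 9.04 in low-dose knockouts, against 6.63 to 7.51 with a median of 7.13 in low-dose wild types. The lowest knockout lay above the highest wild type. The difference was 1.91 ± 0.203 (SE, adjusted p = 8.75e-10), and within the 6 chips that held both groups it ran from 1.21 to 2.33.

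Ddit3 (chr10:127290793-127296291) encodes CHOP, the C/EBP family factor that can push a prolonged stress response towards cell death. Its level was 7.64 to 8.68 with a median of 8.23 in low-dose knockouts, against 7.02 to 7.64 with a median of 7.38 in low-dose wild types. Of the 10 knockouts 9 lay above the highest wild type. The difference was 0.90 ± 0.125 (SE, adjusted p = 3.47e-07), a second probe gave 0.89 (adjusted p = 9.75e-06), and the difference was positive within all 6 chips (0.64 to 1.41).

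Cebpb (chr2:167688915-167690432), the C/EBP beta factor that also acts in glial and inflammatory gene control, rose 1.66-fold. It ran from 6.15 to 7.82 with a median of 6.94 in low-dose knockouts, against 6.05 to 6.39 with a median of 6.16 in low-dose wild types. The knockouts were far more spread, with an SD of 0.538 against 0.0947 in the wild types, and 8 of 10 lay above the highest wild type. The difference was 0.73 ± 0.152 (SE, adjusted p = 0.0003) and 0.17 to 1.43 within chips.

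Cebpg (chr7:35046422-35056566), a C/EBP protein that pairs with ATF4, and Atf3 (chr1:191170296-191183333), a stress-induced factor of the same bZIP class, gave signals near background. Cebpg was above background on 1 of 10 low-dose knockouts and 4 of 11 low-dose wild types. Atf3 was above background on 1 of 10 low-dose knockouts and 3 of 11 low-dose wild types. Their mean levels were 5.09 and 5.03 in low-dose knockouts, against 5.08 and 4.95 in low-dose wild types, and no fold is given for them. The Atf3 window thus shares its 8 letters with those of Nupr1 and Chac1 while its RNA was not measurable on most arrays.

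Nupr1 (chr7:126623246-126625470), a small chromatin-associated protein first known from stressed pancreas, had the largest difference of the 8 at this dose. It ran from 10.12 to 11.04 with a median of 10.60 in low-dose knockouts, against 7.13 to 8.76 with a median of 7.92 in low-dose wild types. The lowest knockout lay well above the highest wild type. The difference was 2.59 ± 0.249 (SE, adjusted p = 5.98e-11), or 6.01-fold, and 2.03 to 2.91 within chips.

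Chac1 (chr2:119351242-119354326), the enzyme that degrades glutathione, the main thiol antioxidant of the cell, rose 1.82-fold. It ran from 5.88 to 6.75 with a median of 6.16 in low-dose knockouts, against 5.03 to 5.67 with a median of 5.33 in low-dose wild types, of which 8 of 11 were above background. Every knockout was above background and above the highest wild type. The difference was 0.87 ± 0.126 (SE, adjusted p = 9.11e-07) and 0.52 to 1.15 within chips. Under the 13 alternatives of the processing it ran from 0.53 to 0.87 and kept the call, so the size of the fold depends on the processing.

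Ddit4 (chr10:59949675-59951770), the stress-induced inhibitor of the growth kinase mTORC1 that is also driven by glucocorticoids and hypoxia, ran from 6.06 to 8.06 with a median of 7.06 in low-dose knockouts, against 5.91 to 7.71 with a median of 7.15 in low-dose wild types. The groups lay on top of each other. The difference was −0.14 ± 0.216 (SE, 95% interval −0.58 to 0.29, adjusted p = 0.716).

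Trib3 (chr2:152337425-152344060), a pseudokinase that binds and restrains ATF4, was dim and its 3 probes behaved differently. The brightest probe on average was above background on 4 of 10 low-dose knockouts and 1 of 11 low-dose wild types, with levels of 4.89 to 5.50 in low-dose knockouts and 4.69 to 5.27 in low-dose wild types, which overlap. The fitted difference was 0.26 ± 0.0797 (SE, adjusted p = 0.0162), a call lost when only the arrays of this contrast were fitted (0.24, adjusted p = 0.0896). With most arrays of both groups at background, this value is not a measure of how far Trib3 RNA changed. The second probe was above background on 8 of 10 low-dose knockouts and on 0 arrays of the other groups. Its level ran from 5.02 to 6.60 with a median of 5.51 in low-dose knockouts, against 4.53 to 5.01 with a median of 4.83 in low-dose wild types, and these ranges did not overlap. As the wild types were below background, the second probe was at least 1.37-fold higher in low-dose knockouts, each wild-type level being set to at least the dimmest value above background of that array. The second probe did not pass the filter on dim probes, and the third was above background on 0 arrays.

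**Figure D2:**
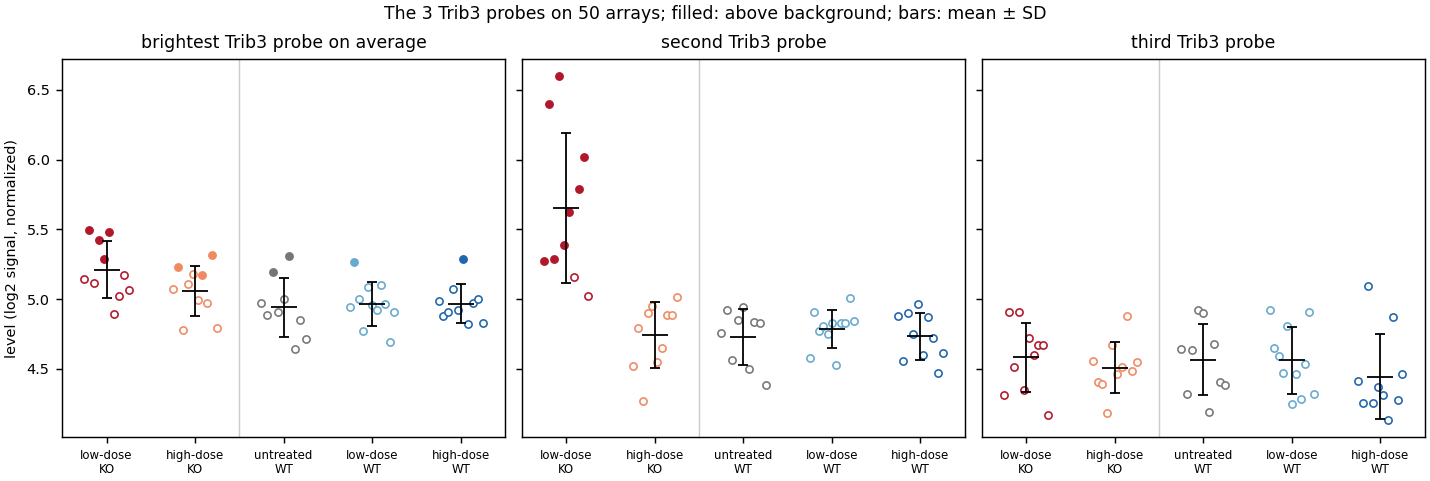
Level (log2 normalized signal) of the 3 Trib3 probes on every array, with low-dose and high-dose knockouts left of the 3 wild-type groups. Filled points are above background and bars are the mean ± SD. The second probe has 8 filled points, all in low-dose knockouts, where it averages 5.65 against 4.73 to 4.79 in the other groups.

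In high-dose knockouts over high-dose wild types, Nupr1 and Atf5 rose, the other 6 tested genes did not pass, and the median difference of the 8 was 0.45 beside −0.01 over all probes. Of all probes, 0.379% were called as rising and 0.58% in either direction. The groups overlapped for all 8 genes, and did not for 0.0744% of all probes. At an unadjusted p under 0.05 there were 6 of the 8, beside 1509 of the 13440 probes.

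Nupr1 ran from 8.22 to 11.12 with a median of 9.76 in high-dose knockouts, against 7.57 to 9.00 with a median of 8.10 in high-dose wild types. High-dose knockouts spanned the whole distance between the wild types and the low-dose knockouts, and 8 of 10 lay above the highest high-dose wild type. The difference was 1.66 ± 0.247 (SE, adjusted p = 8.26e-05), and within chips it ran from −0.06 to 2.43 and was positive in 5 of 6. Atf5 ran from 7.07 to 9.02 with a median of 8.03 in high-dose knockouts, against 6.66 to 7.74 with a median of 7.33 in high-dose wild types. Its difference of 0.80 ± 0.201 (SE, adjusted p = 0.0455) lost the call under 7 of the 13 alternatives of the processing, among them leaving out the 5 dimmest arrays (0.69, adjusted p = 0.151) and fitting only the arrays of this contrast (0.78, adjusted p = 0.163).

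The others at the high dose were positive but did not pass. Cebpb differed by 0.52 ± 0.151 (SE, adjusted p = 0.0997), Ddit3 by 0.38 ± 0.124 (adjusted p = 0.158), Chac1 by 0.33 ± 0.125 (adjusted p = 0.254) and Trib3 by 0.10 (adjusted p = 0.71). With weights for array quality Cebpb passed (0.55, adjusted p = 0.0392). Ddit4 differed by 0.64 ± 0.214 (adjusted p = 0.17), and its level ran from 6.55 to 9.06 in high-dose knockouts, against 6.17 to 7.48 in high-dose wild types. Atf4 differed by 0.05 (95% interval −0.12 to 0.23, adjusted p = 0.888).

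**Figure D3:**
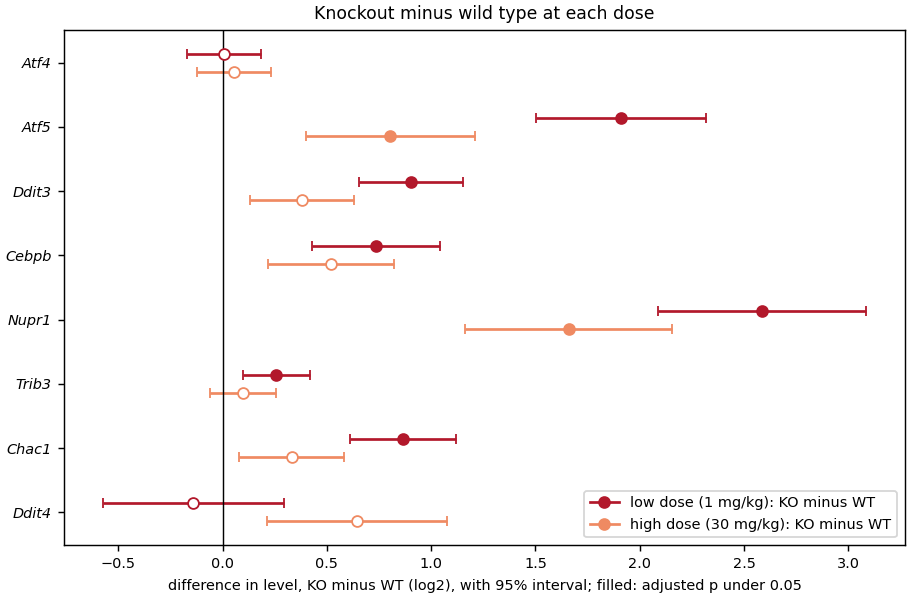
Difference in level, knockout minus wild type on the log2 scale, of the 8 tested genes at the low dose (dark red) and the high dose (orange), with 95% intervals from the model. Filled points have an adjusted p under 0.05, and every point but that of Ddit4 at the low dose is at or above 0. Nupr1 has the highest value at both doses, 2.59 and 1.66.

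The difference between the knockout effects at the high and the low dose was tested as an interaction. Atf5 passed, at −1.10 ± 0.284 (SE, adjusted p = 0.0198), so its knockout effect was smaller at the high dose, and this held under all 13 alternatives run (−1.16 to −0.98). Of all probes 2.11% were called as falling in this comparison and 2.96% in either direction. Nupr1 (−0.93, adjusted p = 0.143), Chac1 (−0.53, adjusted p = 0.086), Ddit3 (−0.52, adjusted p = 0.0919) and Ddit4 (0.78, adjusted p = 0.156) did not pass. At an unadjusted p under 0.05 there were 5 of the 8 and 2146 of the 13440 probes.

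High-dose knockouts set directly against low-dose knockouts, which also enter the low-dose comparison above, had lower levels of 4 of the 8 genes. Atf5 fell by 0.92 (SE 0.199, adjusted p = 0.0007), Nupr1 fell by 0.84 (SE 0.244, adjusted p = 0.0114), Ddit3 fell by 0.50 (SE 0.122, adjusted p = 0.0027) and Chac1 fell by 0.44 (SE 0.123, adjusted p = 0.0092). Of all probes 10.7% were called as falling, 9.34% as rising and 20% in either direction, so falls were common over the whole array too. The ranges of the dose groups overlapped for all 8, and did not for 0.603% of all probes. Cebpb differed by −0.38 (adjusted p = 0.0679), Trib3 by −0.16 (adjusted p = 0.145), Atf4 by 0.09 (adjusted p = 0.526) and Ddit4 by 0.54 (adjusted p = 0.0675), the only one of the 8 besides Atf4 that was not lower at the high dose. Chac1 lost its call when only the arrays of this contrast were fitted (−0.45, adjusted p = 0.0779), and Ddit4 passed under median scaling (0.60, adjusted p = 0.0457).

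Among wild types the agent left these genes without a call. Limma called 0 of the 8 for high over low dose, 0 for low dose over untreated and 0 for high dose over untreated, as it called 0% of all probes in each. These comparisons share their groups. At an unadjusted p under 0.05 there were 0, 1 and 0 of the 8, beside 523, 1834 and 904 of the 13440 probes. The 1 was Chac1, whose mean level was 5.35 ± 0.188 in low-dose wild types (SD, n = 11), against 5.71 ± 0.218 in untreated wild types (SD, n = 9), a difference of −0.35 (adjusted p = 0.217).

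Against untreated wild types, low-dose knockouts had 6 of 8 genes called as rising and 0 as falling, beside 15.8% and 16.3% of all probes, or 32.2% in either direction. High-dose knockouts had 2 called as rising beside 0.64% of all probes, or 0.997% in either direction, and for 0 of the 8 did the groups not overlap, beside 0.0818% of all probes. These comparisons share the untreated mice, and each joins genotype and dose. In low-dose knockouts the differences were 2.43 for Nupr1, 2.0 for Atf5, 0.86 for Ddit3, 0.76 for Cebpb, 0.52 for Chac1 and 0.27 for Trib3, whose probe was at background on most arrays. Nupr1, Atf5 and Ddit3 did not overlap there, as was the case for 2.89% of all probes. In high-dose knockouts Nupr1 differed by 1.59 (adjusted p = 0.0005) and Atf5 by 1.08 (adjusted p = 0.0053). Both calls were lost when only the arrays of that contrast were fitted (adjusted p = 0.0714 and 0.0738). Under median scaling, where the median of all probes was −0.08, Atf4 was called lower in low-dose knockouts than in untreated wild types (−0.32, adjusted p = 0.0181), against −0.05 (adjusted p = 0.7) in the values as reported.

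Ordered by mean level over the 5 groups, the wild types took the lowest places for Atf5, Ddit3, Cebpb, Nupr1, Trib3 and Chac1, with high-dose knockouts above them and low-dose knockouts on top. For Chac1 untreated wild types, at 5.71, lay only 0.07 below high-dose knockouts, at 5.78. For Nupr1 the means were 10.60 ± 0.261 in low-dose and 9.76 ± 0.890 in high-dose knockouts (SD, n = 10 each), against 8.12 ± 0.438 in untreated (n = 9), 7.97 ± 0.520 in low-dose (n = 11) and 8.08 ± 0.439 in high-dose wild types (n = 10). The step of 1.63 up to high-dose knockouts exceeded the larger SD of the neighbours and the next step of 0.84 did not. For Atf5 the means were 9.04 ± 0.537 in low-dose and 8.12 ± 0.703 in high-dose knockouts, against 6.99 ± 0.132 in untreated, 7.07 ± 0.308 in low-dose and 7.30 ± 0.324 in high-dose wild types. Both upper steps of Atf5, 0.81 and 0.93, exceeded the larger SD. For Ddit3 only the top step of 0.49 did so, for Chac1 the top step of 0.44 and one among wild types, 0.26 between the high-dose and the untreated, and for Cebpb and Trib3 no step did. Ddit4 had another order, with high-dose knockouts on top at 7.56 ± 0.678 and low-dose knockouts, at 7.02 ± 0.622, between the wild types. Atf4 means lay within 8.25 to 8.37 in all 5 groups, and no step exceeded an SD.

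Around these genes stands the rest of the pathway, taken from lists drawn up with earlier results of these data known. Of 40 genes that ATF4 is known to switch on, 32 were tested, of which 20 rose and 1 fell in knockouts over wild types at the low dose, with a median difference of 0.33. Of all probes 10.8% rose and 10.1% fell there. Those with the smallest p were Slc7a5, the transporter of large neutral amino acids (1.47, adjusted p = 1.98e-09), Cbs, which makes cystathionine from homocysteine (0.86, adjusted p = 7.31e-09), Eprs, the tRNA synthetase for glutamate and proline (0.73, adjusted p = 2.17e-08), and Eif4ebp1, a repressor of cap-dependent translation (1.27, adjusted p = 1.72e-07). Mean levels of Slc7a5 were 9.35 ± 0.415 in low-dose knockouts (SD, n = 10), against 7.78 ± 0.481 in low-dose wild types (SD, n = 11). The 1 that fell was Slc6a9, a glycine transporter of astrocytes and neurons (−0.44, adjusted p = 0.0036), named after its value was seen. So the level of Atf4 itself was about equal in the 2 groups while 20 of its listed targets were higher. In knockouts over wild types at the high dose limma called 0 of the 32, with a median of 0.07. Only 0.58% of all probes were called there, so a count of 0 says little about these genes. The interaction was called for 6, all falling, beside 2.11% of all probes, with Eprs (−0.76, adjusted p = 0.0002), Cbs (−0.66, adjusted p = 0.0033), Slc7a5 (−1.03, adjusted p = 0.0052) and Wars, the tRNA synthetase for tryptophan (−0.39, adjusted p = 0.0187), having the smallest p. In high-dose over low-dose knockouts 13 fell and 1 rose, beside 10.7% and 9.34% of all probes.

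Of 14 tested upstream genes, for eIF2 kinases, phosphatase subunits and eIF2 factors, 5 rose in knockouts over wild types at the low dose, beside 10.8% of all probes, and the median was 0.14. They were subunits of eIF2B and eIF2 and a related factor, with Eif2b1 at 0.28 (adjusted p = 0.0018), Eif2a at 0.36 (adjusted p = 0.0071), Eif2s2 at 0.33 (adjusted p = 0.009) and Eif2b2 at 0.17 (adjusted p = 0.0202), and the count was 2 or 3 under 3 of the alternatives. RNA of the tested kinases did not pass, with Eif2ak1 (HRI, the heme and mitochondrial stress kinase) at −0.09 (adjusted p = 0.502), Eif2ak2 (PKR) at −0.15 (adjusted p = 0.253) and Eif2ak3 (PERK) at −0.09 (adjusted p = 0.619). Eif2ak4 (GCN2) was not among the tested genes. Dele1, which relays mitochondrial stress to HRI, differed by 0.16 (adjusted p = 0.133), Oma1, the protease that cleaves it, by 0.11 (adjusted p = 0.322), and Ppp1r15a, the stress-induced eIF2alpha phosphatase subunit, by 0.18 (adjusted p = 0.151). In low-dose knockouts over untreated wild types limma called Oma1 higher (0.32, adjusted p = 0.0015), beside 15.8% of all probes. Dele1 and Ppp1r15a did not pass there. That comparison joins genotype and dose, and Oma1 also differed by 0.21 in low-dose over untreated wild types, without a call (limma adjusted p = 0.226).

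Of 12 tested chaperones of the endoplasmic reticulum and ATF6 or XBP1 targets, 0 rose and 5 fell in knockouts over wild types at the low dose, with a median of −0.27, while 10.1% of all probes fell. Those with the smallest p were the lectin chaperone Calr (−0.71, adjusted p = 0.0045), the cochaperone Dnajc3 (−0.37, adjusted p = 0.0098) and the disulfide isomerases Pdia6 (−0.42, adjusted p = 0.0222) and Pdia3 (−0.38, adjusted p = 0.0308). The count was 2 under median scaling and with the authors' deposited log2 values, and 3 without the 5 dimmest arrays. Among 27 other bZIP factors tested 0 rose and 4 fell, a count near the 10.1% of all probes that fell. They were Xbp1 (−0.51, adjusted p = 0.0005), Mafg (−0.45, adjusted p = 0.0005), Atf6b (−0.48, adjusted p = 0.0129) and Fosb (−0.33, adjusted p = 0.0439), a count of 2 under median scaling. Of 5 tested relatives of the 10 genes 2 were called, beside 20.9% of all probes in either direction. Sesn3, a sestrin that restrains mTORC1, rose (0.30, adjusted p = 0.0421) and Trib2, a pseudokinase paralog of Trib3, fell (−0.39, adjusted p = 0.0064). That count of 2 was 1 under 7 of the alternatives and 0 with only the arrays of the contrast. Limma called 0 in each of these 4 lists in knockouts over wild types at the high dose, where 0.58% of all probes were called.

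Whether the genes varied together from mouse to mouse was asked within each group, for the 7 genes above background on most arrays of every group, which gave 21 pairs in each of 5 groups and 105 relations in all. As a description, the median r and the number of positive pairs were higher in knockouts. The median r was 0.56 in low-dose and 0.38 in high-dose knockouts, against −0.03 in untreated, 0.07 in low-dose and 0.09 in high-dose wild types. Positive pairs numbered 20 of 21 in low-dose and 17 in high-dose knockouts, against 10, 11 and 14 in untreated, low-dose and high-dose wild types. The pairs of a group share arrays and genes, and no test of the difference between groups was made. Mouse 25 was the highest of the low-dose knockouts for 4 of the 7 genes, and mouse 5 of the high-dose knockouts for 5. Pairs of genes in general were not computed, so these counts and medians have no background value beside them. A chip held at most 3 arrays of a group, so no value within chips can be given, but with chip effects removed the medians were 0.60 and 0.39 in low-dose and high-dose knockouts, against −0.02, 0.11 and 0.20 in the wild types.

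**Figure D4:**
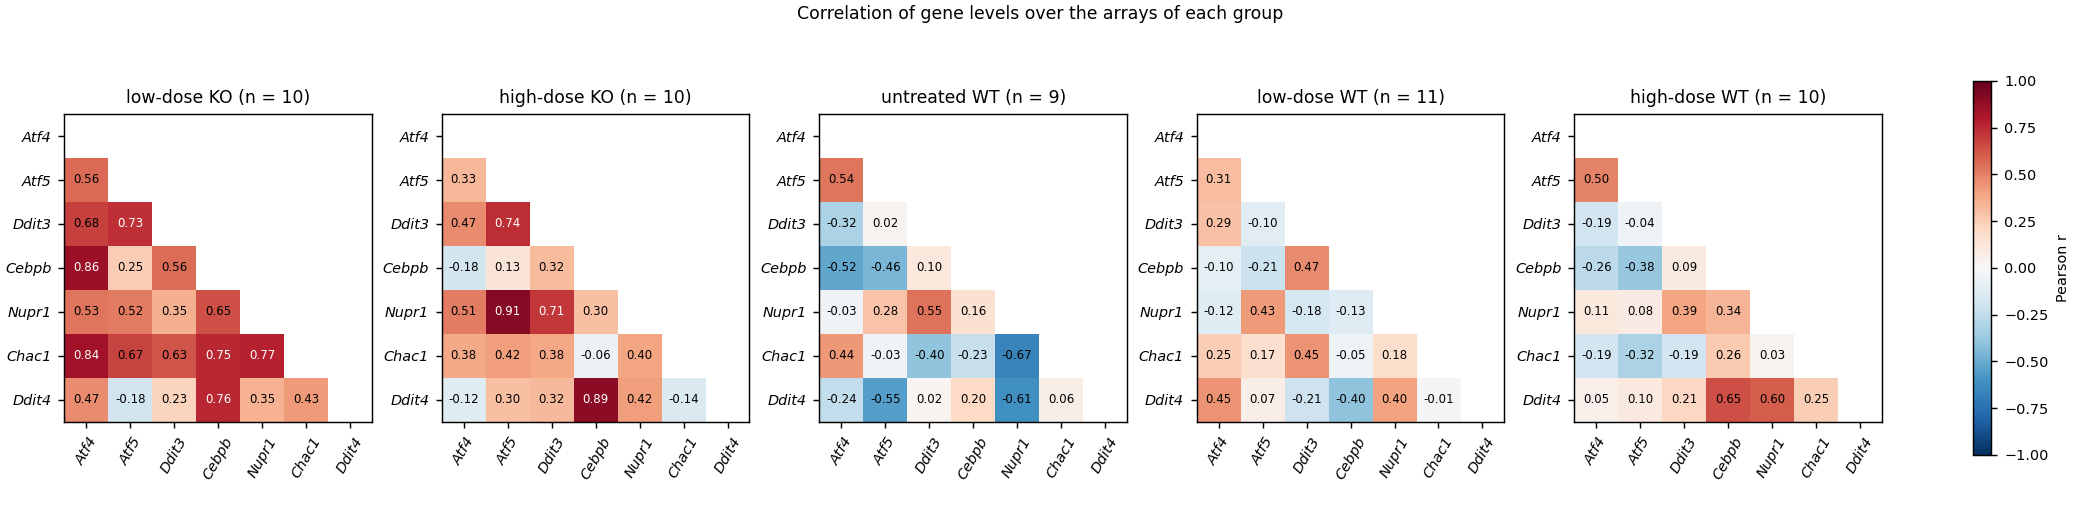
Pearson r between levels of 7 genes over the arrays of each group, with knockout groups left of wild-type groups; red is positive and blue negative. Low-dose knockouts are red in 20 of 21 cells, and wild-type panels hold both colours, from −0.67 to 0.65.

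After adjustment over the 105 relations, 4 pairs passed by r, all of them in knockouts; in wild types 1 pair had an unadjusted p under 0.05. In high-dose knockouts Atf5 and Nupr1 had r = 0.91 (permutation p = 0.0003, adjusted p = 0.0178) and rho = 0.90 (permutation p = 0.0008, adjusted p = 0.043). Mice 5, 8 and 3 were high for both genes and mouse 7 lowest for both. Without the 2 arrays farthest from the median of Atf5, r was 0.84, and with chip effects removed it was 0.89 (adjusted p = 0.0455). Also in high-dose knockouts Cebpb and Ddit4 had r = 0.89 (permutation p = 0.0003, adjusted p = 0.0178) and rho = 0.90 (adjusted p = 0.043). Mouse 1 was highest for both, and r was 0.75 without the 2 farthest arrays and 0.87 with chip effects removed (adjusted p = 0.05005).

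In low-dose knockouts Atf4 and Cebpb had r = 0.86 (permutation p = 0.001, adjusted p = 0.0339), with rho = 0.85 (adjusted p = 0.0688), and r was 0.71 without the 2 farthest arrays and 0.72 with chip effects removed (adjusted p = 0.155). Atf4 and Chac1 had r = 0.84 (permutation p = 0.0017, adjusted p = 0.0454) and rho = 0.84 (adjusted p = 0.0688), and r = 0.87 with chip effects removed. Without the 2 farthest arrays that r was 0.49, so the relation of Atf4 and Chac1 leaned on these arrays. Mice 25 and 23 were highest and mouse 31 lowest for both genes. Atf4, not called between any groups in the values as reported, thus had a high r with Chac1 and Cebpb in low-dose knockouts. Neither pair passed by rho. In high-dose knockouts the r of Atf4 and Chac1 was 0.38 and that of Atf4 and Cebpb −0.18, and in the 3 wild-type groups they ran from −0.19 to 0.44 and from −0.52 to −0.10. Atf4 and Cebpb were thus positively related in 1 of 5 groups, and over all 50 arrays, with group and chip effects removed, their r was 0.11. None of the 4 pairs passed after median scaling or without the 5 dimmest arrays, where r ran from 0.81 to 0.90 and the lowest adjusted p was 0.0559.

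**Figure D5:**
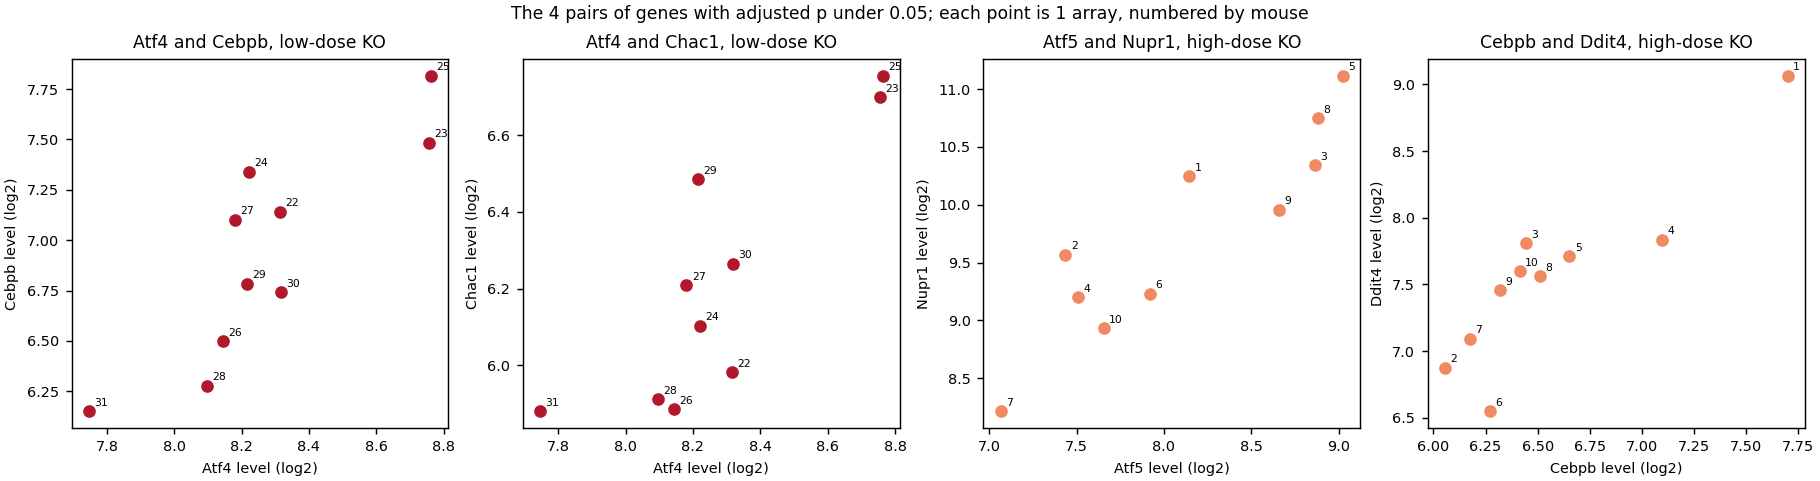
Levels (log2 normalized signal) of the 4 pairs with an adjusted p under 0.05, each point 1 array numbered by mouse, 10 arrays a panel. Low-dose knockouts are in dark red and high-dose knockouts in orange, and mice 25, 23 and 31 lie at the ends of the Atf4 and Chac1 panel, where r is 0.84 and 0.49 without the 2 farthest arrays.

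A few pairs kept their sign in all groups. Atf4 and Atf5 were positive in 5 of 5 groups (r from 0.31 to 0.56), as were Atf5 and Nupr1 (0.08 to 0.91) and Ddit3 and Cebpb (0.09 to 0.56). Cebpb and Ddit4 were positive in 4 of 5, from −0.40 in low-dose wild types to 0.89 in high-dose knockouts. Over all 50 arrays, with group and chip effects removed, r was 0.63 for Cebpb and Ddit4, 0.60 for Atf4 and Chac1, 0.60 for Atf5 and Nupr1 and 0.59 for Atf5 and Ddit3.

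In low-dose knockouts, the only group where the second Trib3 probe and Hmox1 were above background on most arrays, 14 further relations were computed. Their p-values were adjusted among these 14 only, and the second Trib3 probe had not passed the filter on dim probes. The second Trib3 probe followed Chac1 (r = 0.94, permutation p = 0.00015, adjusted p = 0.0021, rho = 0.92, r = 0.83 without the 2 farthest arrays). It also followed Atf4 (r = 0.89, permutation adjusted p = 0.004, rho = 0.81, r = 0.63 without the 2 farthest arrays). For Atf5 these values were r = 0.75, permutation adjusted p = 0.0376, rho = 0.83 and r = 0.87. Hmox1, the inducible heme oxygenase and an Nrf2 target, ran from 6.38 to 10.38 among these 10 mice and followed Ddit3 (r = 0.81, permutation p = 0.006, adjusted p = 0.028, rho = 0.76, r = 0.89 without the 2 farthest arrays). The other relations of Hmox1 did not pass by r. By permutation, r was 0.70 with Cebpb (adjusted p = 0.0562), 0.59 with Atf4 (adjusted p = 0.106) and 0.58 with Ddit4 (adjusted p = 0.107). With Chac1 it was 0.45 (adjusted p = 0.243), with Atf5 0.24 (adjusted p = 0.551) and with Nupr1 0.19 (adjusted p = 0.606).

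Other genes were ranked by likeness to each of the 7, as r over 50 arrays with group and chip effects removed, among 7907 genes above background on at least 25 arrays. Closest to Cebpb were Cdkn1a (r = 0.78), the cell cycle inhibitor p21, Nfkbia (0.77), the inhibitor of NF-kappaB, and Fkbp5 (0.66), a glucocorticoid-induced cochaperone. Closest to Nupr1 were the glutathione transferase Gstm1 (0.68), the polyamine acetyltransferase Sat1 (0.67) and the mitochondrial carrier gene Slc25a34 (0.65). Closest to Atf5 were the peroxisomal gene Pex11a (0.66), the mitochondrial aldehyde dehydrogenase Aldh2 (0.65) and Tkt, transketolase (0.65). Closest to Ddit4 were Atp5md (0.78), Midn (0.73) and Slc11a1 (0.71), and closest to Ddit3 were Tmem11 (0.66), Sdhaf3 (0.64) and Commd6 (0.64). Closest to Atf4 were Plekhm1 (0.71), Rpf1 (0.68) and Morc3 (0.66), and closest to Chac1 were Inpp5e (0.60), Phospho2 (0.52) and Zmynd8 (0.52). These values share the arrays and their normalization and are a description.

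Measures of cell content and array quality moved with some of these levels. The mean level of the neuron and synapse markers was 9.31 ± 0.295 in low-dose knockouts (SD, n = 10), against 9.67 ± 0.285 in low-dose wild types (SD, n = 11), and their summed signal was 6337 to 18742 in low-dose knockouts, against 6227 to 22623 in low-dose wild types. The mean level of the astrocyte markers was 9.06 ± 0.155 in low-dose knockouts, against 8.82 ± 0.170 in low-dose wild types, with summed signals of 13105 to 20318 in low-dose knockouts, against 13233 to 23337 in low-dose wild types. Oligodendrocyte markers averaged 9.64 in low-dose knockouts, against 9.91 in low-dose wild types, and microglia markers 7.72 in low-dose knockouts, against 7.97 in low-dose wild types. In untreated wild types the means were 9.95 for neuron, 8.65 for astrocyte, 10.14 for oligodendrocyte and 7.59 for microglia markers. With group and chip effects removed, Nupr1 had r = −0.50 with the neuron mean and 0.49 with the astrocyte mean over the 50 arrays, Atf5 −0.46 and 0.29, and Atf4 −0.41 and −0.01. Ddit3 had −0.37 and 0.04. Oligodendrocyte markers had r = −0.39 with Cebpb and −0.39 with Chac1, and microglia markers 0.34 with Ddit4. The number of probes above background had r = −0.33 with Atf4, −0.32 with Ddit3, −0.27 with Nupr1 and −0.24 with Atf5. With Ddit4 that r was −0.20, with Cebpb −0.05 and with Chac1 0.01. High-dose knockout mouse 5 gave the array with the fewest probes above background, 10161, and was the highest of its group for 5 of the 7 genes (Atf4, Atf5, Chac1, Ddit3 and Nupr1). Without this and the 4 next dimmest arrays, Nupr1 still rose in knockouts at both doses, and Atf5 only at the low dose. The part of cell content in these differences was not tested.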

How the data were processed

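Synaptosomal RNA of 50 mice was amplified, labelled with biotin and read on Illumina MouseRef-8 v2.0 arrays, per the labels' protocols. The deposited intensity file held, per the file headers, average bead signals of 25697 probes on each array, without detection p-values or control probes. Array medians ran from 54.1 to 78.02, and identical pairs of arrays numbered 0. The authors' deposited log2 values of the same arrays have an unstated normalization and were used as an alternative; column medians were 6.02 to 6.03, each of the 50 columns tracked its own array best with a slope of 0.879 to 1.17, so they are levels and not differences. Software and genome build of the probe annotation are not given in the sources used here.

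Signals were background-corrected in limma 3.58.1 (R 4.3.3) by normexp (saddle-point, offset 16), quantile normalized and put on the log2 scale. A probe counted as above background past 1.64 SD over the lower peak of its array's signals, at 48.6 to 70.8, and 13440 probes (10078 genes) that passed this on 9 or more arrays entered the fit. Names were updated through a RefSeq table (GRCm38.p6), which held symbols of 24584 probes (95.7%). The fit had 5 groups and 7 chips as fixed factors (39 residual and 7.36 prior degrees of freedom); 6 chips held all 5 groups. The number of arrays limits the precision. Correlations used two-sided permutation p-values, exact for 9 arrays and from 100000 resamples (1e+05) for 10 or 11. The scripts were tested on simulated data. The genes and lists were chosen with earlier results of these data known. The text names all 10 genes, the 4 smallest p of each list among called genes, 3 genes per likeness ranking, Sod2, Hmox1, and the kinases and relays of the pathway, which were added after the data were seen.

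Alternatives were leaving out the chip, a random chip effect, position as a covariate, no background correction, an offset of 50, median scaling, cyclic loess, no filter, a stricter filter (25 arrays), only the arrays of a contrast, no 5 dimmest arrays, array weights, a second probe and the authors' values.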

Additional observations from a re-analysis of the deposited data

Results flagged for a closer look

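Dixon's gap test over 40 combinations, the 10 genes in each group of 9 or 10 mice, marked 3 samples, and chance marks about 1 in 20 groups. Each of the 3 stood far above the rest of its group. Atf3 had a level of 5.60 in low-dose knockout mouse 24, beside a next highest of 5.18 and a group median of 4.99, and this was the only one of the 10 low-dose knockouts with Atf3 above background. Ddit4 had 9.06 in high-dose knockout mouse 1, beside 7.83 and a median of 7.58; the same mouse was highest of its group for Cebpb. Nupr1 had 9.00 in high-dose wild-type mouse 19, beside 8.31 and a median of 8.10.

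The knockout effect on Atf5 differed between the doses by −1.10 on the log2 scale (limma interaction, adjusted p = 0.0198), the 1 of 8 genes where this test passed. Mean Atf5 levels were 9.04 in low-dose knockouts against 7.07 in low-dose wild types, and 8.12 in high-dose knockouts against 7.30 in high-dose wild types.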

How the results depend on the processing

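No paired analysis was possible because the numbers in the labels are unique to each mouse and pair no samples across groups. Of 945 gene differences under other processing, 931 kept their direction and call or stayed uncalled, 11 lost a call and 3 gained one; 29 uncalled differences changed sign and no called one did. The count of called genes in high-dose knockouts over high-dose wild types was 2, and 1 (Nupr1) under position as a covariate, no background correction, offset 50, median scaling, no filter, only the arrays of the contrast and without the 5 dimmest arrays; Atf5 then had adjusted p-values of 0.0505 to 0.163, against 0.0455. For high-dose knockouts over untreated wild types the count of 2 became 0 with only the arrays of the contrast. The 4 correlated pairs became 0 under median scaling and 0 without the 5 dimmest arrays. The causes were not tested. Over all probes the 78 calls for high-dose knockouts over high-dose wild types became 48 under median scaling, 47 without a filter, 47 with only the arrays of the contrast, 30 without the dimmest arrays, 121 with position and 118 with array weights. The 398 interaction calls became 222 under median scaling, 258 with only the arrays of the contrast and 251 without the dimmest arrays; the 2688 calls between doses in knockouts became 1617 with only the arrays of the contrast. The 134 for high-dose knockouts over untreated wild types became 203 with position, 79 without a filter, 8 with only the arrays of the contrast, 54 without the dimmest arrays and 369 with array weights; the 0 for low-dose over untreated wild types became 2 without a chip term and 4 with chip as a random effect or array weights. Median scaling moved the share of rising calls to 41.7% for high-dose knockouts over high-dose wild types, from 65.4% (75.5% with cyclic loess), to 7.21% from 28.9% for the interaction, to 59.9% from 46.7% between doses in knockouts, and to 19.9% from 49.2% for low-dose and 16.1% from 64.2% for high-dose knockouts over untreated wild types. Dim signal limits Trib3, Atf3 and Cebpg.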
